A study of Mus musculus with 19 samples.

Results

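The genes followed in the mouse striatum make GABA, load it, take it up and break it down: Gad1, Gad2, Slc32a1, Slc6a11 and Abat. They were taken by gene name from the authors' deposited tables, and each of the 5 names matched 1 of the 49592 genes in the count files. All 5 passed the filter on low counts that left 21513 genes for testing. RNA was sequenced from the striatum of 19 male mice aged 4 months, all of the strain D2RCre_floxCas9-EGFP, in which cells that express the D2 dopamine receptor make Cas9. The PFC_D2R-KO mice had received AAV5 D2R-sgRNA, guide RNAs against that receptor, in the medial prefrontal cortex. The control mice had received AAV5 syn-mCherry there and carried the same Cre and Cas9 alleles. All mice were given saline on 5 days and a challenge on day 9. The groups were amphetamine at 3 mg/kg in PFC_D2R-KO mice (n = 4), saline in PFC_D2R-KO mice (n = 5), amphetamine in control mice (n = 5) and saline in control mice (n = 5). The striatum was taken 90 min after the challenge, a time that the labels give for amphetamine. The tissue sequenced was not the one injected, so no level here checks the knockout.

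GABA is the main inhibitory transmitter of the brain and the transmitter of nearly all striatal neurons, both the projection neurons and most interneurons. It is made from glutamate by glutamic acid decarboxylase, packed into vesicles, released, and cleared by transporters in neurons and astrocytes. Inside those cells a transaminase breaks it down again. Gad1 encodes the decarboxylase form found throughout the cell body, which supplies most GABA, and Gad2 the form attached to vesicles at nerve endings. Slc32a1 encodes the vesicular transporter that loads GABA. Slc6a11 encodes a plasma membrane GABA transporter found mainly on astrocytes in the rodent brain. Abat encodes the mitochondrial transaminase that begins GABA breakdown.

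In GRCm39 the deposited tables place Gad1 (ENSMUSG00000070880.11) on chromosome 2 from 70383416 to 70432358, Gad2 (ENSMUSG00000026787.4) on chromosome 2 from 22512217 to 22583886, and Slc32a1 (ENSMUSG00000037771.12) on chromosome 2 from 158452687 to 158457668. Slc6a11 (ENSMUSG00000030307.9) lies on chromosome 6 from 114108202 to 114226913, and Abat (ENSMUSG00000057880.13) on chromosome 16 from 8331293 to 8439432. All 5 are annotated as protein-coding. The long noncoding RNA genes Gad1os and Gm14205 overlap the spans of Gad1 and Slc32a1, but averaged 54.1 and 57.3 counts a library, against 49640 for Gad1 and 19326 for Slc32a1.

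Of the 5 genes, 4 had a promoter window of 300 bases in the RefSeq table of build GRCm38.p6, from 250 bases before the annotated start to 50 after it. The windows of 3 are printed. Gad1 is shown because it held the 1 motif match found. Slc32a1 and Slc6a11 are shown because their pair kept the highest correlation across mice when outlying libraries were left out. Capitals mark that match, and no other letter is in capitals.
Gad1, GRCm38.p6, chr2:70561879-70562178, plus strand: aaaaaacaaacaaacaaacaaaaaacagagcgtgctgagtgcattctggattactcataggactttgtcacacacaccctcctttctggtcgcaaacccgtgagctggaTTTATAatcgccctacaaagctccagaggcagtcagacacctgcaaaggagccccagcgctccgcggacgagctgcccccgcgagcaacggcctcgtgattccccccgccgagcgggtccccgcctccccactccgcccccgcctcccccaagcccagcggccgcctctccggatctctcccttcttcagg
Slc32a1, GRCm38.p6, chr2:158610508-158610807, plus strand: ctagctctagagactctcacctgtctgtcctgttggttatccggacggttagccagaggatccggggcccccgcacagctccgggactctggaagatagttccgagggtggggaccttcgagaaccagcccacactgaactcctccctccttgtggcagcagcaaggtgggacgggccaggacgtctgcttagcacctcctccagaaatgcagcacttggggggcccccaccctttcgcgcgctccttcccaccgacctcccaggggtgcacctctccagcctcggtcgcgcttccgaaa
Slc6a11, GRCm38.p6, chr6:114130991-114131290, plus strand: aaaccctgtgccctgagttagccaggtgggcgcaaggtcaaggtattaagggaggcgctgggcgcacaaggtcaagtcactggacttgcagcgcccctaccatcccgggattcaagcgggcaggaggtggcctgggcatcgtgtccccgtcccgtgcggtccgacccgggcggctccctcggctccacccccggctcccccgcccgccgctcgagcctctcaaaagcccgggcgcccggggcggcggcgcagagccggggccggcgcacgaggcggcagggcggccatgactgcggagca
The windows were searched on both strands for TAATTA, a core bound by homeobox factors, TGACGTCA, the cAMP response element, TGANTCA, the AP-1 site, CACGTG, the E-box, and TATAAA, the TATA box. The 1 match in 4 windows was TTTATA, the reverse complement of TATAAA, at base 110 of the Gad1 window. That is position -141 from the annotated start, with TATAAA on the strand opposite to the gene. Whether it acts as a TATA box was not tested. TATAAA was present in 13.6% of all 32851 promoter windows, TGANTCA in 7.81%, CACGTG in 7.15%, TAATTA in 5.29% and TGACGTCA in 1.79%. The share of G and C was 72.3% in the Slc6a11 window, 63.3% for Slc32a1, 61.3% for Gad2 and lowest for Gad1. The Slc6a11 window held 32 CG dinucleotides, against 21 for Gad1, 17 for Slc32a1 and 14 for Gad2.

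Library totals ran from 57003408 to 85536346 counts, and the member with the fewest counts in any library still had 11193. Levels are given as CPM, read counts scaled to library size, after TMM correction for library composition, and log2 fold changes and adjusted p-values are from edgeR's quasi-likelihood test with Benjamini-Hochberg adjustment over all 21513 genes. Calls were made where the adjusted p was under 0.05. The 10 projection neuron markers were detected in every group, and their summed level was lowest in amphetamine PFC_D2R-KO mouse 3, at 1441 CPM, against 2249 to 5503 CPM in the other 18 libraries. On the first 4 principal components of all genes, 5 libraries stood apart: amphetamine PFC_D2R-KO mice 2 and 3, saline PFC_D2R-KO mouse 3, amphetamine control mouse 3 and saline control mouse 5. In bulk tissue, fewer cells of a type and less RNA per cell cannot be told apart.

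On the deposited FPKM values, which divide by gene length and so allow genes to be compared, Gad1 had the highest level of the 5, with a mean of 186 FPKM over the 19 libraries. Gad2 and Abat followed at 126 FPKM each, then Slc32a1 at 92.4 and Slc6a11 at 78.3. The Gad1 FPKM was above the Gad2 FPKM in all 19 libraries, by a factor of 1.19 to 1.86. Gad2, at 82.1 to 153 FPKM, and Abat, at 90.4 to 146 FPKM, overlapped, as did Slc32a1, at 61.2 to 108, and Slc6a11, at 41.4 to 115. Slc6a11 varied most from mouse to mouse, with a 2.78-fold range of CPM. The other 4 genes had ranges of 1.62-fold for Abat to 1.88-fold for Gad2.

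**Figure D1:**
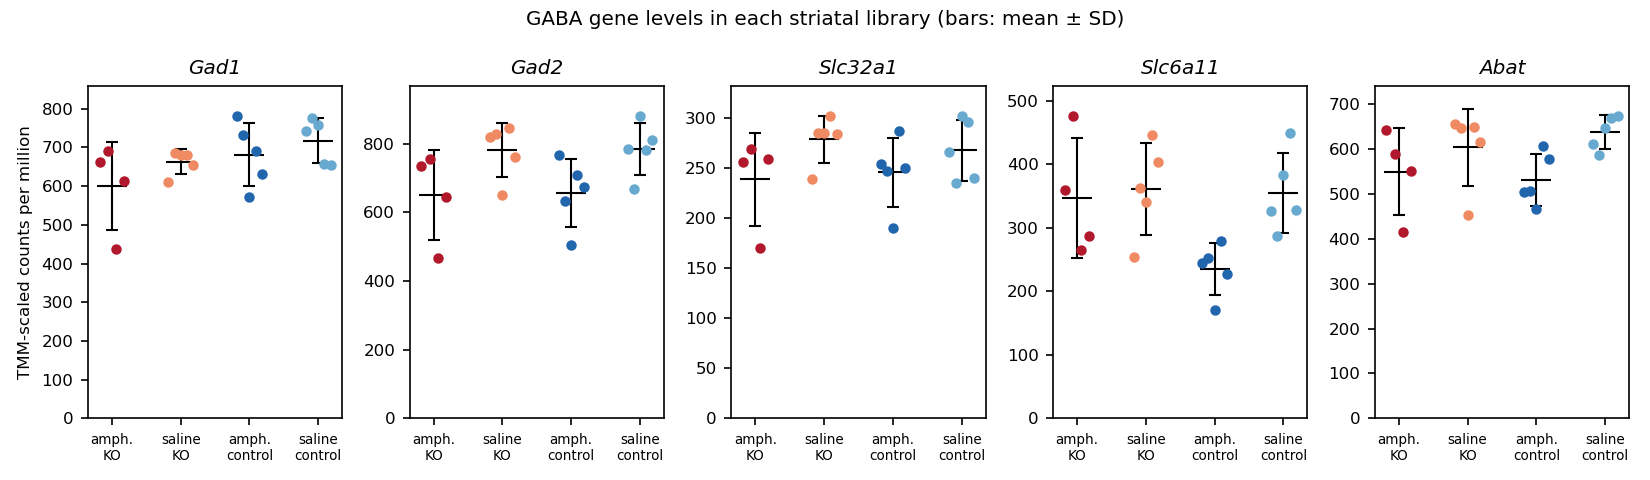
TMM-scaled CPM of the 5 GABA genes, with a point for each mouse and the mean ± SD as a bar; n = 4 amphetamine PFC_D2R-KO mice and 5 mice in each other group. Slc6a11 lies between 171 and 280 CPM in amphetamine control mice and between 254 and 476 CPM in the other groups.

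Of the synthesis genes, Gad1 stood at 437, 613, 662 and 690 CPM in amphetamine PFC_D2R-KO mice, against 612, 655, 682, 682 and 687 CPM in saline PFC_D2R-KO mice. In amphetamine control mice it stood at 573, 631, 690, 732 and 781 CPM, against 653, 658, 742, 759 and 777 CPM in saline control mice. The 4 groups overlapped, and a single amphetamine PFC_D2R-KO library lay below all others. The group means, from low to high, were 601 ± 113 CPM in amphetamine PFC_D2R-KO mice, 663 ± 31.4 in saline PFC_D2R-KO mice, 681 ± 81.7 in amphetamine control mice and 718 ± 58.0 in saline control mice (SD), with ranges that overlapped between neighbours.

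Gad2 stood at 467, 644, 735 and 756 CPM in amphetamine PFC_D2R-KO mice, against 652, 762, 819, 828 and 845 CPM in saline PFC_D2R-KO mice. In amphetamine control mice the values were 504, 634, 676, 708 and 768 CPM, against 668, 782, 784, 811 and 880 CPM in saline control mice. Both amphetamine groups had lower means, at 651 ± 131 (n = 4) and 658 ± 99.1 CPM (n = 5), than both saline groups, at 781 ± 78.6 and 785 ± 76.8 CPM (SD, n = 5 each), and all ranges overlapped. The Gad2 log2 fold change after amphetamine was -0.26 ± 0.133 (SE) in PFC_D2R-KO mice and -0.26 ± 0.125 in control mice, with adjusted p of 0.430 in each by edgeR. The 95% intervals ran from -0.54 to 0.01 and from -0.51 to 0.0042. For Gad1 the same comparisons gave -0.14 ± 0.113 and -0.07 ± 0.106, with adjusted p of 0.608 and 0.841.

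The Gad1 to Gad2 ratio of FPKM within a library does not depend on library scaling. It was 1.48 ± 0.0360 in amphetamine PFC_D2R-KO mice (SD, n = 4), against 1.37 ± 0.180 in saline PFC_D2R-KO mice (n = 5). In control mice it was 1.66 ± 0.156 after amphetamine, against 1.47 ± 0.229 after saline (n = 5 each). The ranges overlapped in both pairs.

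Slc32a1, which loads the vesicles, stood at 170, 256, 259 and 269 CPM in amphetamine PFC_D2R-KO mice, against 239, 283, 285, 285 and 301 CPM in saline PFC_D2R-KO mice. In amphetamine control mice it stood at 190, 247, 250, 254 and 286 CPM, against 235, 240, 265, 295 and 301 CPM in saline control mice. All groups overlapped, and the lowest value belonged to the same amphetamine PFC_D2R-KO mouse as for both Gad genes. The log2 fold change after amphetamine was -0.22 ± 0.128 in PFC_D2R-KO mice and -0.12 ± 0.120 in control mice, with adjusted p of 0.478 and 0.742.

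The uptake gene Slc6a11 stood at 171, 227, 245, 253 and 280 CPM in amphetamine control mice, against 287, 326, 328, 384 and 450 CPM in saline control mice. Every amphetamine control library lay below every saline control library. This was the 1 member of 5 whose groups did not overlap in any comparison, where 1.68% of all genes tested were lower with no overlap in the same comparison. In PFC_D2R-KO mice after amphetamine 2.84% of genes were lower and 2.22% higher with no overlap. Between genotypes the shares were 3.71% and 3.08% under amphetamine, and 0.4% and 0.511% under saline. The means were 235 ± 40.6 CPM with amphetamine and 355 ± 63.3 CPM with saline (SD, n = 5 each), a ratio of 0.663 with a 95% interval of 0.518 to 0.849. The log2 fold change was -0.59 ± 0.171 (SE), with an unadjusted p of 0.00246 and an adjusted p of 0.200 by edgeR, so that it was not called. Over all alternatives the adjusted p ran from 0.0593, with DESeq2, to 0.462, without saline control mouse 4. The log2 fold change stayed between -0.49 and -0.67.

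The authors' deposited table for amphetamine against saline in control mice, made with DESeq2, lists Slc6a11 at -0.59 on the log2 scale (adjusted p = 0.00407). That table calls 4.21% of the genes that have an adjusted p there. Slc6a11 is the 1 member it calls. The authors' deposited tables for amphetamine in PFC_D2R-KO mice and for genotype under saline call none of the 5, where they call 0.665% and 0.00439% of genes.

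In PFC_D2R-KO mice Slc6a11 stood at 265, 287, 360 and 476 CPM after amphetamine, against 254, 341, 362, 404 and 446 CPM after saline. These groups overlapped over nearly their whole range. The means were 347 ± 94.9 CPM (n = 4) and 362 ± 72.6 CPM (SD, n = 5), with a fold change of -0.06 ± 0.181 on the log2 scale (95% interval -0.44 to 0.32, adjusted p = 0.913 by edgeR). Without amphetamine PFC_D2R-KO mouse 2 it was -0.25, and without mouse 3 it was 0.05. Under amphetamine, Slc6a11 was at 1.48 times the control level in PFC_D2R-KO mice, or 0.56 ± 0.180 on the log2 scale (adjusted p = 0.230 by edgeR). The ranges overlapped there, since amphetamine PFC_D2R-KO mouse 3, at 265 CPM, lay below the highest amphetamine control mouse, at 280 CPM. The test of the difference between the 2 responses gave 0.53 ± 0.248 on the log2 scale, with an unadjusted p of 0.0438 and an adjusted p of 0.537. Without amphetamine PFC_D2R-KO mouse 2, which had the highest Slc6a11 level of all, that difference was 0.34 and the contrast under amphetamine 0.37.

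**Figure D2:**
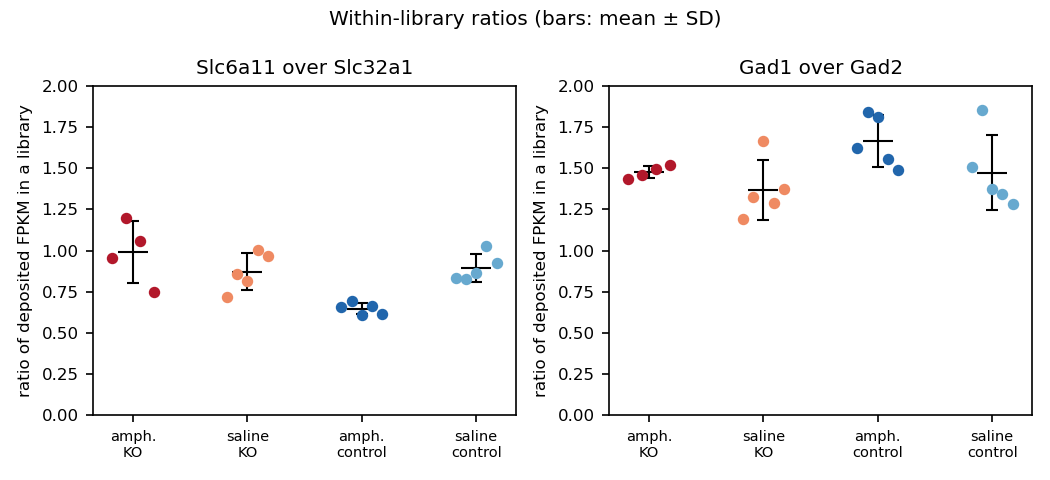
Ratio of deposited FPKM within each library for Slc6a11 over Slc32a1 and for Gad1 over Gad2, with a point for each mouse and the mean ± SD as a bar. The Slc6a11 to Slc32a1 ratio lies at 0.609 to 0.694 in amphetamine control mice and at 0.720 or above in every other library.

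Set against Slc32a1 of the same library, Slc6a11 separated the amphetamine control mice from the rest. The FPKM ratio was 0.990 ± 0.188 in amphetamine PFC_D2R-KO mice (SD, n = 4), against 0.872 ± 0.115 in saline PFC_D2R-KO mice (n = 5). In amphetamine control mice it was 0.647 ± 0.0354, against 0.895 ± 0.0852 in saline control mice (n = 5 each). The amphetamine control libraries ranged from 0.609 to 0.694, against 0.825 to 1.03 in saline control mice and 0.720 to 1.20 in the PFC_D2R-KO mice. This ratio was not tested, since it joins genes chosen with earlier results known. How many other pairs of genes separate the same mice was not counted.

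No marker of any other cell type or region was called between the same control groups, but the fitted values of several lists lay to one side of 0. Of the 9 pallidal and septal neuron markers 8 were below 0 (median log2 fold change -0.63), as were all 8 hypothalamic neuron markers (-1.19) and all 6 ependymal markers (-0.69). Of 8 astrocyte markers 6 were below 0, with a median of -0.17. Over all genes tested the median was -0.01, with 51.6% below 0. The summed pallidal and septal markers ran from 508 to 641 CPM after amphetamine, against 566 to 674 CPM after saline. Meis2, the 1 marker above 0, was the largest part of those sums, with means of 399 against 328 CPM. Of the 9 markers 7 had an unadjusted p under 0.05 by edgeR (11.8% of all genes), and 2 were lower with no overlap (1.68%). Summed hypothalamic markers ran from 9.94 to 26.3 CPM against 15.6 to 190 CPM, and summed ependymal markers from 13.3 to 26.9 CPM against 29.4 to 46.9 CPM. The astrocyte sums overlapped, at 3403 to 3882 CPM after amphetamine against 3287 to 4066 CPM after saline. Slc1a2 was the largest part of those sums, with means of 2370 CPM after amphetamine against 2229 CPM after saline. An unadjusted p under 0.05 by edgeR was reached by 4 of 8 astrocyte, 4 of 8 hypothalamic and 5 of 6 ependymal markers. It was reached by 11.8% of all genes. Lower with no overlap were 2 astrocyte, 0 hypothalamic and 3 ependymal markers, where 1.68% of all genes were. No marker of these 4 lists was at 0 in a whole group, and 4 hypothalamic genes averaged under 1 CPM in amphetamine control mice. Among them were the peptide genes Hcrt and Agrp, which were under 1 CPM in every group. The peptide genes Avp, Oxt and Trh averaged 1.60, 2.56 and 7.89 CPM in amphetamine control mice. In saline control mice they averaged 18.4, 21.4 and 26.7 CPM. The part of these tissues in the Slc6a11 difference was not tested. All 10 projection neuron markers were above 0 (median 0.48), with sums of 4281 to 5503 CPM against 2820 to 4028 CPM. All 8 cortical projection neuron markers (median 0.75, sums of 407 to 993 CPM against 139 to 633 CPM) and all 5 microglia markers (0.38, 218 to 254 CPM against 150 to 230 CPM) were above 0 as well. Of 5 thalamic markers 3 were below 0 (-0.35, 124 to 146 CPM against 122 to 222.1 CPM), and all 5 cholinergic markers were (-0.15, 60.8 to 125 CPM against 76.2 to 142 CPM). The GABAergic interneuron, oligodendrocyte, choroid plexus and vascular lists had members on both sides of 0, with medians from -0.15 to 0.16. Between genotypes under amphetamine all 10 projection neuron markers were below 0 (median -0.80). Above 0 were 8 of 9 pallidal and septal markers (0.57), all 8 hypothalamic (1.33) and all 5 choroid plexus markers (2.09). So were 6 of 8 astrocyte (0.12), 5 of 6 ependymal (0.54) and 4 of 5 thalamic markers (0.18). The GABAergic interneuron, cholinergic, cortical projection neuron, oligodendrocyte, microglia and vascular lists had medians from -0.17 to -0.07. The choroid plexus sum was 669 CPM in amphetamine PFC_D2R-KO mouse 2, against 24.1 to 66.4 CPM in the other 18 libraries. The part of these values in the Slc6a11 contrast between genotypes was not tested.

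Abat was the breakdown gene among the members, and only its RNA was measured. It stood at 465, 504, 506, 577 and 606 CPM in amphetamine control mice, against 587, 611, 647, 669 and 673 CPM in saline control mice. Only the highest amphetamine library reached into the saline range. The means were 532 ± 58.1 and 637 ± 37.3 CPM (SD, n = 5 each), which gave -0.26 ± 0.114 on the log2 scale (unadjusted p = 0.0320, adjusted p = 0.372 by edgeR). The authors' deposited table lists it at -0.26 with an adjusted p of 0.0558.

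In PFC_D2R-KO mice Abat stood at 415, 551, 588 and 642 CPM after amphetamine, against 452, 615, 647, 648 and 655 CPM after saline. Each of the 2 groups held a library far below its others, from mouse 3 in both. On the log2 scale the difference was -0.14 ± 0.121 (adjusted p = 0.655 by edgeR).

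**Figure D3:**
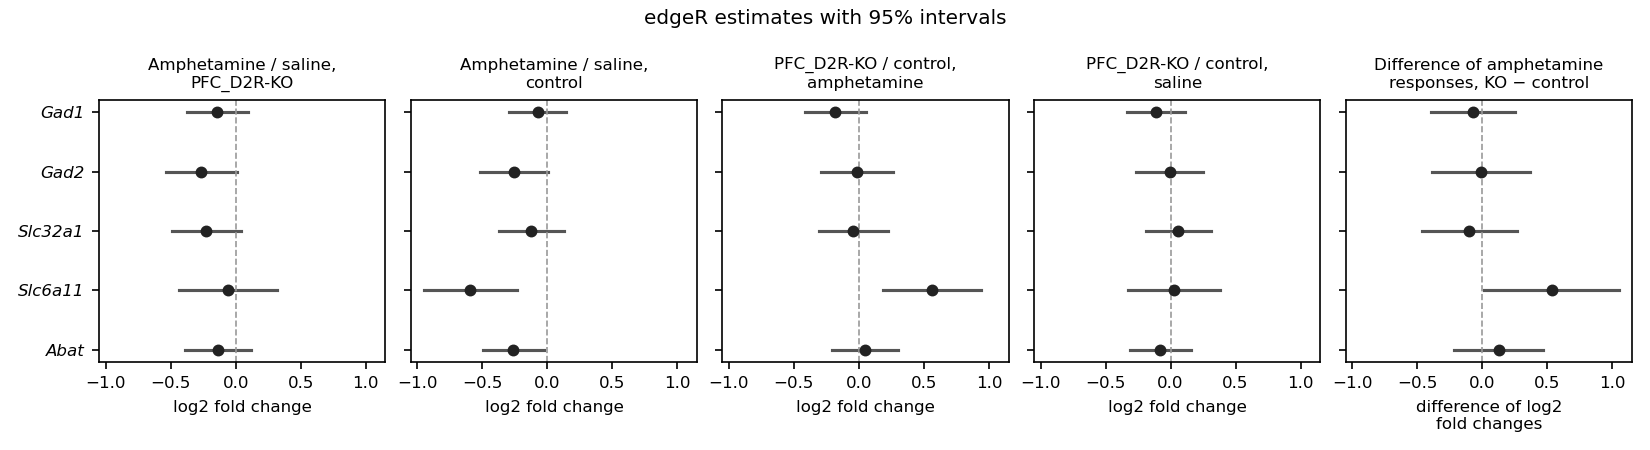
log2 fold changes (points) and 95% intervals (lines) from edgeR for the 5 genes in 4 comparisons, and the difference of the 2 amphetamine responses at the right. In control mice all 5 points lie below 0, and the interval of Slc6a11 ends at -0.24.

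Counted together, none of the 5 members was called by edgeR in any of the 5 comparisons, and DESeq2 with the same groups called none either. The background was low: edgeR called 0.00465% of genes for amphetamine against saline in PFC_D2R-KO mice, the same 0.00465% in control mice, and 0% for PFC_D2R-KO against control under amphetamine, under saline, and for the difference of responses. At an unadjusted p under 0.05, 2 members passed in control mice after amphetamine (Slc6a11 and Abat), where 11.8% of all genes passed. None passed in PFC_D2R-KO mice after amphetamine, where 12.1% of genes did. Under amphetamine 1 member, Slc6a11, passed between genotypes, with 12.8% of genes, and under saline none, with 7.94%. For the difference of responses it was again Slc6a11 alone, with 9.25% of genes.

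All 5 members were below 0 after amphetamine in each genotype, with a median log2 fold change of -0.14 in PFC_D2R-KO mice and -0.26 in control mice. Over all genes 51.1% and 51.6% were below 0, with medians of -0.01 in both. In PFC_D2R-KO mice these values rested in part on amphetamine mouse 3. Without it Gad1 was at -0.02, Gad2 at -0.13, Slc32a1 at -0.09 and Abat at -0.02, and Slc6a11 turned to 0.05.

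Between genotypes under saline the 5 members lay close to each other, with log2 fold changes from -0.11 for Gad1 to 0.06 for Slc32a1. The 95% intervals were -0.33 to 0.11 for Gad1, -0.27 to 0.25 for Gad2, -0.19 to 0.31 for Slc32a1, -0.33 to 0.38 for Slc6a11 and -0.32 to 0.16 for Abat. Differences of any size inside those limits are compatible with the values of these mice, so equal levels are not shown. Under amphetamine the genotypes differed by -0.18 ± 0.113 for Gad1, by -0.02 ± 0.132 for Gad2, by -0.04 ± 0.128 for Slc32a1 and by 0.05 ± 0.120 for Abat. The 95% intervals of these 4 genes included 0, and that of Slc6a11 ran from 0.19 to 0.94. Under saline, under amphetamine and for the difference of responses 3 of the 5 members were below 0, where 49%, 49% and 49.1% of all genes were.

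**Figure D4:**
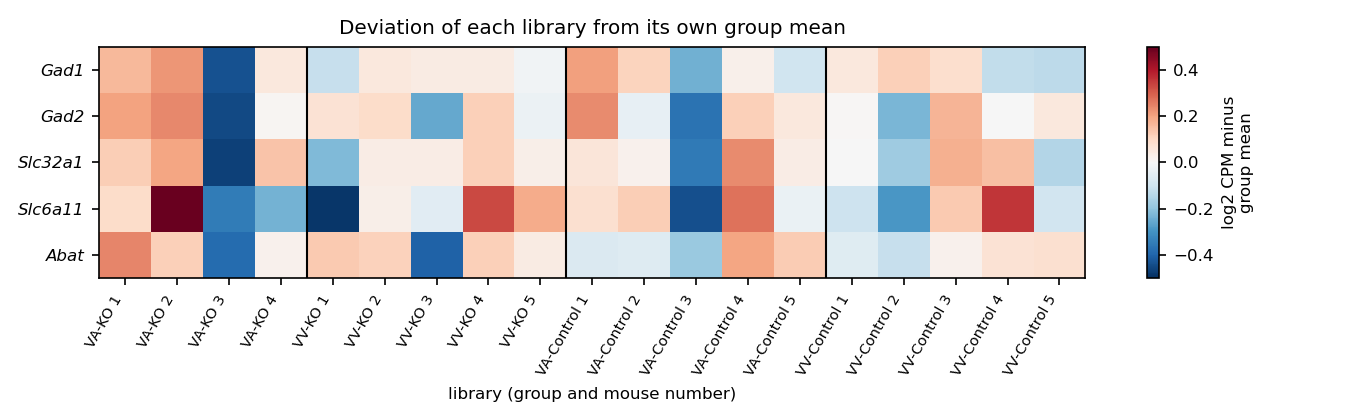
Deviation of each library from the mean of its own group, in log2 CPM, for the 5 GABA genes (rows) in 19 libraries (columns, named by group and mouse number; VA is amphetamine and VV saline). Amphetamine PFC_D2R-KO mouse 3 and amphetamine control mouse 3 are below their group means for all 5 genes.

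Several pairs of members also varied together among mice of the same group. The share of all gene pairs that reach such correlations was not counted, and the permutation p tests only against no relation. For each member the closest genes of all, given further below, had a higher r than any other member had. Over the 19 libraries, as deviations of log2 CPM from the group means, Slc32a1 and Slc6a11 had a Pearson r of 0.806 and a Spearman rho of 0.784 (permutation p = 2e-05 and 0.000120, adjusted over 10 pairs 0.000200 and 0.00120). Without the 2 libraries farthest in Slc32a1 their r was 0.770. Gad2 and Abat had an r of 0.814 and a rho of 0.686 (permutation p = 0.000110 and 0.00178, adjusted 0.000550 and 0.00623), and an r of 0.708 without the 2 farthest. Gad1 and Gad2 had an r of 0.681 and a rho of 0.560 (permutation p = 0.00171 and 0.0143, adjusted 0.00342 and 0.0357), but an r of 0.278 without amphetamine PFC_D2R-KO mouse 3 and amphetamine control mouse 3. Gad1 with Slc32a1 had an r of 0.735 and a rho of 0.461, and an r of 0.370 without the same 2 mice. Leaving out the libraries farthest in a gene narrows its range, which by itself lowers r. Whether a relation rested on those mice therefore cannot be told from these values, for these or the other pairs. Other pairs weakened without the same mice: Gad2 with Slc32a1 had an r of 0.766, and 0.459 without them, Slc32a1 with Abat 0.576 and 0.241, Gad2 with Slc6a11 0.617 and 0.428, and Gad1 with Slc6a11 0.525 and 0.292. Slc6a11 and Abat had 0.456, and 0.565 without saline PFC_D2R-KO mouse 1 and amphetamine control mouse 3. For these 5 pairs the adjusted permutation p ran from 0.00137 to 0.0542 for r and from 0.00623 to 0.138 for rho. Gad1 and Abat had an r of 0.382 and a rho of 0.0912 (permutation p = 0.105 and 0.71, and the same after adjustment), and an r of -0.155 without those mice.

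In amphetamine PFC_D2R-KO mouse 3 the deviations were -0.44 for Gad1, -0.45 for Gad2, -0.47 for Slc32a1, -0.35 for Slc6a11 and -0.38 for Abat. This library also had the lowest summed cholinergic neuron markers of all, at 32.9 CPM against 60.8 to 142 CPM elsewhere. Its pallidal and septal sum, at 433 CPM, and its oligodendrocyte sum, at 3624 CPM, were the lowest as well. The GABAergic interneuron sum was the highest of all, at 427 CPM against 334 to 411 CPM elsewhere. So was the cortical projection neuron sum, at 1099 CPM. Amphetamine control mouse 3 had the second lowest cholinergic sum, at 60.8 CPM, and a cortical sum of 993 CPM. The part of tissue makeup in these deviations was not tested.

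By the same deviations, among 10607 genes with a mean of at least 10 CPM, genes close to Slc32a1 were Slc10a4 (r = 0.902), Ache (0.899), Gbx1 (0.895) and Chat (0.892). Chat makes acetylcholine and Ache breaks it down. Closest to Slc6a11 were Zfp687 (0.930), Grik4 (0.909), a kainate receptor subunit, Rtl5 (0.903), Sall2 (0.880) and Ache (0.876). Closest to Gad2 were Plaat1 (0.911), Rbms3 (0.910), Pfkfb3 (0.890), Nhs (0.886) and Gfra1 (0.882). Closest to Gad1 were Isoc1 (0.820), Sp9 (0.803) and Six3 (0.797), both transcription factors of developing striatal neurons, Slc10a4 (0.797) and Zfp14 (0.784). Closest to Abat were Senp1 (0.913), Tbl1x (0.907), Specc1l (0.903), Zfp804a (0.896) and Aldh5a1 (0.876), the enzyme that takes the next step of GABA breakdown after Abat. These r values describe 19 libraries that differ in their marker sums and in depth, and were picked as the highest. The part of those differences in the r values was not tested.

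Of 21 other genes of GABA handling, its glutamate supply and the GABA-B receptors, none was called by edgeR or DESeq2 in any of the 5 comparisons. All 21 passed the filter. After amphetamine in PFC_D2R-KO mice 12 were below 0 and 9 above, with 6 at an unadjusted p under 0.05, where 51.1% of all genes were below 0 and 12.1% had such a p. The smallest p were for Maob, a monoamine oxidase also placed on an astrocyte route to GABA (-0.18 ± 0.0729, adjusted p = 0.346), Kctd8, an auxiliary subunit of GABA-B receptors (-0.37 ± 0.157, 0.370), and Odc1, which makes the GABA precursor putrescine (-0.23 ± 0.102, 0.384). Slc38a5, a glutamine transporter, was the 1 gene of the 21 whose groups did not overlap here. Over all genes 2.84% were lower and 2.22% higher with no overlap. Slc38a5 was at 1.66 to 2.33 CPM after amphetamine, against 2.41 to 4.84 CPM after saline (-0.67 ± 0.378, adjusted p = 0.478 by edgeR).

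In control mice 14 of the 21 were below 0 and 7 above, with 1 at an unadjusted p under 0.05, where 51.6% of all genes were below 0 and 11.8% had such a p. That was Aldh9a1, an aldehyde dehydrogenase that can form GABA, with 35.0 ± 2.65 CPM in amphetamine mice and 42.4 ± 4.36 CPM in saline mice (SD, n = 5 each), or -0.28 ± 0.0804 on the log2 scale (adjusted p = 0.200 by edgeR). The authors' deposited table lists it with an adjusted p of 0.0450. The transporter Slc6a13, found in the meninges and vessels, had -0.78 ± 0.386 on the log2 scale (adjusted p = 0.441 by edgeR). Kctd16, another GABA-B auxiliary subunit, was at 22.5 to 24.9 CPM in every amphetamine control library, against 15.3 to 22.5 CPM after saline, with no overlap, though the closest libraries both round to 22.5 CPM (2.22% of genes were higher with no overlap). Its log2 fold change was 0.38 ± 0.189 (adjusted p = 0.441), and it is the other gene of the 21 that the authors' deposited table calls.

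Between genotypes no gene of the 21 had an unadjusted p under 0.05, under amphetamine (12.8% of all genes) or saline (7.94%). Under amphetamine, where 14 were below 0, Kctd16 was at 13.2 to 21.7 CPM in PFC_D2R-KO mice, against 22.5 to 24.9 CPM in control mice, again without overlap (3.71% of genes were lower with no overlap; -0.39 ± 0.201, adjusted p = 0.434). Gabbr1 and Gabbr2, the 2 receptor subunits, had -0.13 ± 0.0668 and 0.38 ± 0.200 (0.441 and 0.449). Under saline 13 were below 0, and the smallest p were for Kctd8 (0.29 ± 0.147, adjusted p = 0.618), Slc38a5 (0.58 ± 0.354, 0.641) and Maob (0.10 ± 0.0686, 0.656). The difference of responses had its smallest p for Kctd8 (-0.55 ± 0.215, adjusted p = 0.519), Slc38a5 (-1.11 ± 0.518, 0.539) and the transporter Slc6a12 (1.28 ± 0.703, 0.565), with 11 of 21 below 0.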

How the data were processed

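Whole-number gene counts from the striatum of 19 mice were deposited by the authors, and the submitters' processing notes name STAR 2.6.0c, HTSeq 0.6.1p2, DESeq2 1.26.0s and the build GRCm39. For strand setting and annotation release, nothing was given in the sources used here. The authors deposited FPKM values per mouse, computed with an unstated gene length, in 3 tables of comparisons that also hold log2 fold changes from the authors, and p-values from the authors. FPKM was used only to compare genes. Groups come from the sample titles, which number separate mice. A library left out of the authors' PFC_D2R-KO table was not analysed here.

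Counts were filtered with filterByExpr, scaled by TMM and fitted with edgeR 4.0.16 (robust quasi-likelihood) in R 4.3.3 as 4 group means over 19 libraries. A standard error is the log2 fold change divided by the square root of F. No 2 libraries were copies (smallest chi-square per degree of freedom 11.2). Correlations used log2 CPM with a prior count of 2 and 100000 permutations. Members and gene lists were chosen with earlier results of these data known. The genes named are the 5 members, pathway genes with the 3 smallest p in a comparison, and the 5 genes closest to each member by r, of which 1 is not reported here. Genes named outside that rule, after their values were seen, are Hcrt, Agrp, Avp, Oxt, Trh, Slc1a2, Meis2, Gad1os and Gm14205. The fit was tested on simulated data. Alternatives were DESeq2 1.42.0, its size factors, no filter, only the groups compared, the mouse number as a replicate block, leaving out each mouse, and leaving out 5 libraries. The sample titles do not say that mouse numbers pair the animals.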

Additional observations from a re-analysis of the deposited data

Results flagged for a closer look

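Among 20 groups of values of the 5 genes, 3 held a mouse far from the rest, by a gap to the nearest mouse relative to the group's range, where chance flags about 1 in 20 groups. Slc32a1 was at 170 CPM in amphetamine PFC_D2R-KO mouse 3, with the next mouse at 256 CPM. Slc32a1 was at 239 CPM in saline PFC_D2R-KO mouse 1, with the next at 283 CPM, a gap just past the limit. Abat was at 452 CPM in saline PFC_D2R-KO mouse 3, with the next at 615 CPM. That last library also had the lowest summed astrocyte markers of all 19, at 2549 CPM against 3135 to 4066 CPM in the others. The part of tissue makeup in these values was not tested.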

How the results depend on the processing

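No member and no pathway gene was called under any alternative in any comparison. Counts of all genes called moved with the test. For amphetamine against saline in PFC_D2R-KO mice edgeR called 1 gene, DESeq2 96, the fit of only those groups 0, the replicate block 5, and the fit without the 5 libraries that stand apart, chosen after seeing the data, 2. Leaving out single mice gave 0 to 3. In control mice the counts were 1, with DESeq2 199, with only those groups 75, without the 5 libraries 39, and 0 to 4 on leaving out single mice. Between genotypes under amphetamine they were 0, with DESeq2 103 and without the 5 libraries 1. DESeq2 called 14 genes for the difference of responses, where edgeR called 0. The cause of these changes was not tested. Mice with the same title number had correlations of their deviations from -0.221 to 0.154, and the main fit used no pairs. The titles number the amphetamine PFC_D2R-KO mice without a gap for the library left out. Most of these title numbers therefore differ from the authors' library numbers. For those mice neither this check nor the replicate block can tell whether the authors' numbers pair animals.

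Fold changes of members near 0 changed sign, none of them called. Without the 5 libraries Gad2 and Abat under saline were at 0.065 and 0.031, and the Gad1 difference of responses at 0.00060. The replicate block gave 0.0080 for the Gad2 difference. On leaving out single mice the ranges were as follows. Under saline they were -0.064 to 0.046 for Gad2, -0.068 to 0.13 for Slc6a11 and -0.12 to 0.0038 for Abat. Under amphetamine they were -0.10 to 0.11 for Gad2, -0.12 to 0.090 for Slc32a1 and -0.037 to 0.16 for Abat. For Slc6a11 after amphetamine in PFC_D2R-KO mice the range was -0.25 to 0.050. For the difference of responses they were -0.14 to 0.056 for Gad1, -0.089 to 0.12 for Gad2 and -0.17 to 0.03 for Slc32a1. Slc6a11 kept its sign in control mice (-0.49 to -0.67), between genotypes under amphetamine (0.36 to 0.67) and for the difference of responses (0.34 to 0.64). With 4 or 5 mice a group, the spread between mice and not depth limits these estimates.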
